A study of Homo sapiens with 12 samples.

Results

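The 9 genes described here, TGFB1, TGFB2, TGFBR1, TGFBR2, SMAD3, SMAD6, SMAD7, ID1 and ID3, encode parts of the TGF-beta and BMP signaling pathways. They were chosen by gene name, with their counts across the treatments already known, from the 26485 genes in the deposited count files. All 9 were found and all 9 passed the filter on low counts, which kept 14865 genes. Because their values took part in the choice, their levels and differences are given as a description without p-values. Counts of the 9 genes past a threshold stand beside the same share of all genes and carry no weight as tests, which are given for the other genes of the pathway.

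The study used OVCAR8, a human ovarian cancer line. Cells were cultured for 7 h under 4 conditions. The groups were vehicle (control), 150 nM EC359, 100 nM trametinib, and 150 nM EC359 with 100 nM trametinib (combination). EC359 inhibits signaling through the leukemia inhibitory factor receptor (LIFR), and trametinib inhibits the kinases MEK1 and MEK2 of the MAPK cascade. Each condition had 3 RNA-seq libraries, 12 in all, and every group was of the same line, with no transgene or knockout. The sources used here do not say that the 3 libraries came from separate cultures, so p-values measure the spread between these libraries, which may be technical.

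The libraries held between 24790392 and 32467283 gene-assigned counts. Levels are given as CPM, the counts of a gene in every 1000000 counts of its library, after scaling of the libraries by the trimmed mean of M-values (TMM). A count of 0 allows a level of up to 3 counts, or 0.0883 to 0.127 CPM, and this limit covers counting error only. Pairs of libraries of 1 condition correlated at 0.991 to 0.993 across genes on the log2 CPM scale, and pairs of different conditions at 0.958 to 0.987. Of markers of serous ovarian epithelium, PAX8 was at 75.8 CPM and the keratins KRT7, KRT8 and KRT18 at 976, 1930 and 1047 CPM in control libraries, while WT1 was at 4.36 CPM and MUC16 had no count there. The leukocyte genes PTPRC and CD3E had no count in any library, and neither did the fibroblast gene DCN, but CD68, also a leukocyte marker, was at 53.1 CPM in control. Of further mesenchymal markers, VIM was at 2290, COL1A1 at 427 and PDGFRB at 13.3 CPM there, while LUM was at 0.661 and COL1A2 at 0.0196 CPM, and their part in the results was not tested.

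TGF-beta ligands such as TGFB1 and TGFB2 are secreted in a latent form and, once active, bind the type II receptor TGFBR2, which recruits and phosphorylates the type I receptor TGFBR1. The active receptor phosphorylates SMAD2 and SMAD3, which join SMAD4 and enter the nucleus, whereas BMP ligands act through their own receptors and SMAD1, SMAD5 and SMAD9. SMAD6 and SMAD7 are inhibitory SMADs that block the receptors and are themselves induced by the pathway. ID1 and ID3 encode helix-loop-helix proteins without a DNA-binding region that hold basic helix-loop-helix factors away from DNA, and they are classic BMP-responsive genes. In ovarian epithelium and its tumors, TGF-beta signaling is known for growth arrest and for the loss of epithelial traits.

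ID1 was lower in every treated group, and its lowest level was in the combination, at 0.174 of control. SMAD7 was 2.23-fold higher with EC359 and 2.35-fold higher in the combination, and at the control level with trametinib. TGFB2 was 2.54-fold higher with trametinib and 2.25-fold higher in the combination, whereas TGFBR2 was lower in all 3 treated groups. SMAD3 was at 0.595 of control in the combination. In bulk RNA, fewer cells of a state and less RNA per cell cannot be told apart.

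The sequences just upstream of TGFB2, SMAD7 and ID1 are shown because these genes had the largest differences among the 9 and followed 3 different patterns. They are RefSeq promoter windows of build GRCh38.p14, printed 5′ to 3′ on the strand of the gene, from 250 to 11 bases before the RefSeq start. The motifs searched, on both strands, were the core of the SMAD binding element (CAGAC), a GC-rich element bound by SMAD1 and SMAD5 (GGCGCC), the AP-1 site (TGACTCA, which reads TGAGTCA on the other strand), the core of the cAMP response element (TGACGT) and the TATA box (TATAAA). The search, here and in the shares of all promoters given below, covered whole windows from 250 bases before to 50 after the start, of which the part after the start is not printed. Capitals mark the matches, and positions below count bases before the start. TGFB2 lies on the plus strand at chr1:218345086-218345325, SMAD7 on the minus strand at chr18:48950976-48951215 and ID1 on the plus strand at chr20:31605039-31605278.
TGFB2: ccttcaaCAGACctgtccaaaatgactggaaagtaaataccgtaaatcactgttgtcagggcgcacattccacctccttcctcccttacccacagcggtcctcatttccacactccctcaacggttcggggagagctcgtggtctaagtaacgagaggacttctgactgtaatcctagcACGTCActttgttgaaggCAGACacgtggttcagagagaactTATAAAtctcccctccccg
SMAD7: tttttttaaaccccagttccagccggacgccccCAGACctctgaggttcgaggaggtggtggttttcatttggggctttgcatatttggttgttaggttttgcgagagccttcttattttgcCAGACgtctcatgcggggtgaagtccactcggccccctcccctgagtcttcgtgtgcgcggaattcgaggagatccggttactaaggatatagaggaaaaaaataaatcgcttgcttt
ID1: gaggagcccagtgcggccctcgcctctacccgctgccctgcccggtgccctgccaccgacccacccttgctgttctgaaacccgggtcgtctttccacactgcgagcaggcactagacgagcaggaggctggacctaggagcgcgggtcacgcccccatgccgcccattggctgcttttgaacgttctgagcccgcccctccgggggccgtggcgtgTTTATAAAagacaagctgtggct

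The TGFB2 window held CAGAC at -243 and -53, TGACGT on the opposite strand at -71 and TATAAA at -29. The SMAD7 window held CAGAC at -217 and -128. In the ID1 window, TATAAA occurred on both strands in overlapping matches at -33 and -31, and the other motifs had no match. Of 35116 RefSeq promoter windows of that whole length, 45.3% held the SMAD core, 19.2% the GC-rich element, 4.9% an AP-1 site, 8.0% the cAMP element core and 11.5% the TATA box. The TATA box search was added after the sequences had been seen. All 9 genes matched RefSeq windows, of which TGFBR1 had 8, SMAD3 5, SMAD7 3 and TGFBR2 2, and for each gene the window whose start lay nearest to the start in the authors' annotation was searched. Among the windows searched but not printed, TGFBR2 held an AP-1 motif at -6, SMAD3 held GGCGCC at -136 and -106 and CAGAC at 6 (after the start), TGFBR1 held CAGAC at -240 and -183, and ID3 held CAGAC at -147. The windows of TGFB1 and SMAD6 held none of the motifs. A match describes letters in the window and not a bound site. The RefSeq start of SMAD7 lies 254 bases from the start in the authors' annotation, and those of TGFB2 and ID1 lie 2 and 6 bases from it.

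**Figure D1:**
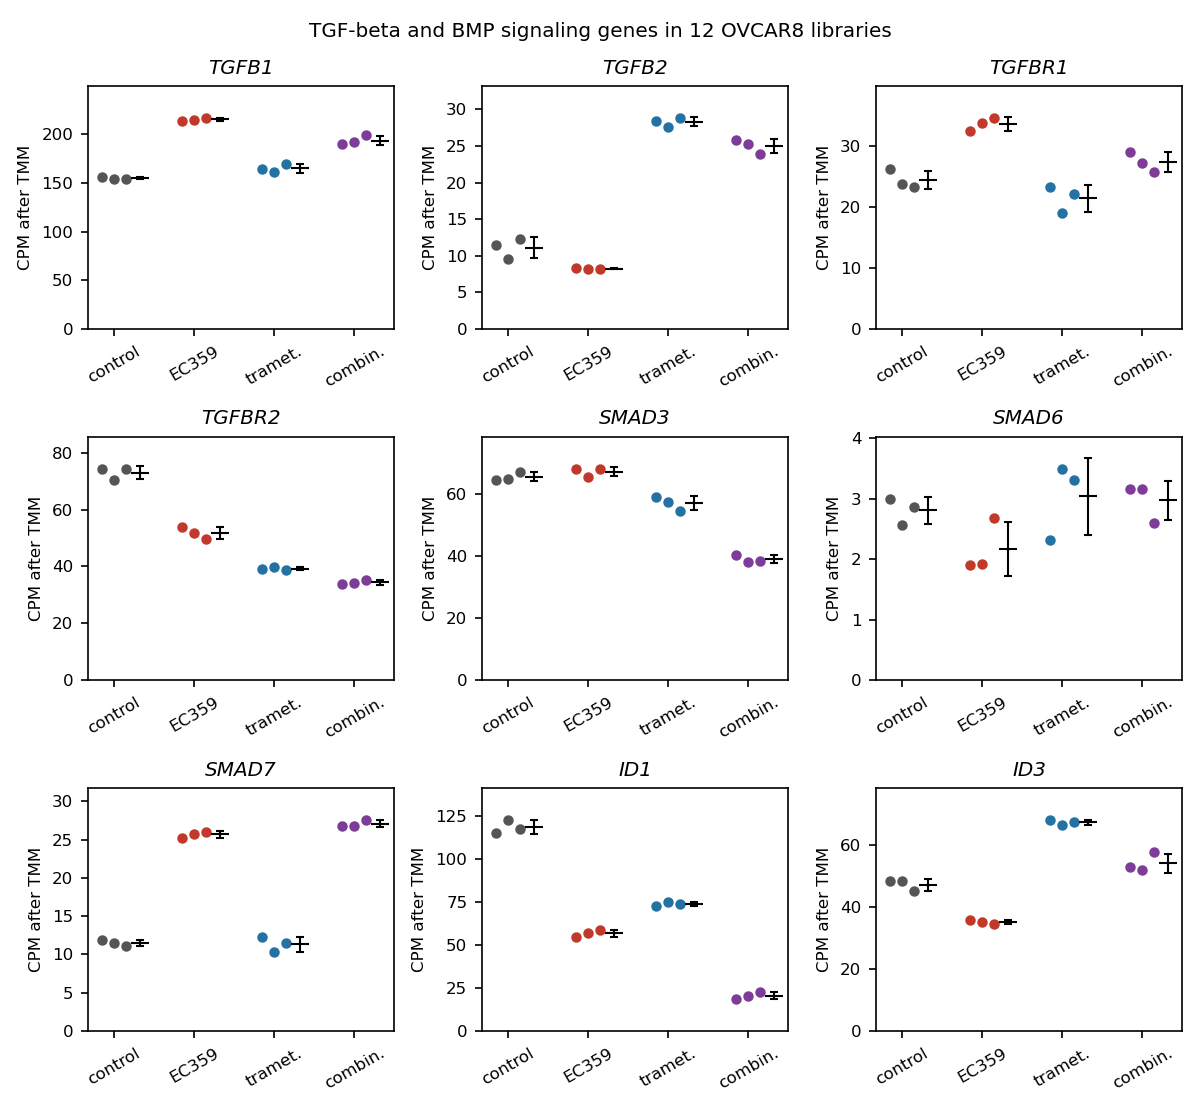
Levels in CPM (vertical axes, from 0) of the 9 genes in the 12 libraries, by treatment (horizontal axes). Points are libraries and bars are means with SD (n = 3), and the ID1 panel shows the combination libraries at 18.7 to 22.5 CPM, under every other group.

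TGFB1, the main TGF-beta ligand of epithelial and immune cells, lies on the minus strand at chr19:41330531-41353933 (hg38, 7 exons). Its level was 157, 154 and 154 CPM in control libraries and 214, 215 and 217 CPM with EC359. It was 165, 161 and 169.9 CPM with trametinib and 189.6, 192 and 199 CPM in the combination. Each treated group lay above control without overlap, with EC359 alone the highest. The log2 differences from control were 0.47 ± 0.03 (SE) with EC359, 0.09 ± 0.03 with trametinib and 0.32 ± 0.03 in the combination.

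TGFB2, a ligand that needs the coreceptor betaglycan for strong binding to TGFBR2, lies on the plus strand at chr1:218345334-218444619 (hg38, 8 exons). Control libraries had 11.5, 9.51 and 12.3 CPM, and EC359 libraries had 8.37, 8.19 and 8.24 CPM. Trametinib libraries had 28.3, 27.6 and 28.8 CPM, and combination libraries had 25.8, 25.2 and 23.9 CPM. Both groups that received trametinib were above the other groups, and the EC359 group was just below control without overlap. The log2 difference from control was -0.43 ± 0.08 with EC359, 1.35 ± 0.07 with trametinib and 1.17 ± 0.07 in the combination. TGFB2-OT1, which overlaps TGFB2 on the same strand and can share its reads, averaged 1.91, 1.21, 4.91 and 4.14 CPM in control, EC359, trametinib and the combination. TGFB2-AS1 on the opposite strand had at most 4 counts in a library, and the reads were counted by strand.

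The balance of the ligands, as the ratio of CPM per kilobase of exon, was 32.5 ± 4.37 (SD, n = 3) for TGFB1 over TGFB2 in control and 60.0 ± 0.966 with EC359. It was 13.5 ± 0.0933 with trametinib and 17.9 ± 1.17 in the combination. The 4 groups did not overlap in this ratio. TGFB1 was thus the more abundant ligand transcript per length in all 12 libraries.

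TGFBR1, the type I receptor kinase, lies on the plus strand at chr9:99105089-99154191 (hg38, 9 exons). It was at 26.1, 23.7 and 23.3 CPM in control and at 32.4, 33.6 and 34.6 CPM with EC359. With trametinib it was at 23.2, 18.9 and 22.1 CPM, and in the combination at 29.0, 27.1 and 25.7 CPM. EC359 libraries were above all others, trametinib libraries were just below control, and combination libraries overlapped control. The log2 differences from control were 0.46 ± 0.06, -0.18 ± 0.06 and 0.17 ± 0.06 for EC359, trametinib and the combination.

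TGFBR2, the type II receptor that binds the ligand first, lies on the plus strand at chr3:30606502-30694141 (hg38, 8 exons). Its levels were 74.2, 70.3 and 74.4 CPM in control and 54.0, 51.8 and 49.7 CPM with EC359. They were 39.1, 39.7 and 38.7 CPM with trametinib and 33.7, 34.1 and 35.3 CPM in the combination. The 4 groups stood in this order, from control down to the combination, with no overlap. The log2 differences from control were -0.49 ± 0.04, -0.90 ± 0.04 and -1.09 ± 0.04. The ratio of TGFBR2 to TGFBR1 per kilobase was 4.17 ± 0.251 in control, and it was 2.15 ± 0.161 in EC359, 2.57 ± 0.306 in trametinib and 1.75 ± 0.145 in the combination. Every treated library was below every control library in this ratio.

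SMAD3, the receptor-regulated SMAD that binds DNA directly, lies on the plus strand at chr15:67065857-67195195 (hg38, 12 exons). Control libraries had 64.6, 64.7 and 67.2 CPM, and EC359 libraries had 68.2, 65.5 and 68.0 CPM, overlapping them. The values were 59.1, 57.5 and 54.6 CPM with trametinib and 40.4, 38.2 and 38.4 CPM in the combination. The combination libraries were the lowest, below those of trametinib alone without overlap. The log2 difference from control was -0.20 ± 0.04 with trametinib and -0.75 ± 0.04 in the combination, and with EC359 it was 0.04 ± 0.04 and turned to -0.10 when libraries were scaled by total counts only.

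SMAD7, the inhibitory SMAD that brings ubiquitin ligases to TGFBR1, lies on the minus strand at chr18:48919853-48950711 (hg38, 5 exons). It was at 11.9, 11.5 and 11.2 CPM in control libraries and at 12.3, 10.3 and 11.5 CPM with trametinib. With EC359 it was at 25.2, 25.8 and 26.0 CPM, and in the combination at 26.8, 26.8 and 27.6 CPM. Both groups that received EC359 were above both groups that did not, and trametinib libraries overlapped control. The log2 difference was 1.16 ± 0.07 for EC359 against control and 1.25 ± 0.07 for the combination against trametinib.

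SMAD6, the inhibitory SMAD that acts mainly on BMP receptors, lies on the plus strand at chr15:66702336-66781999 (hg38, 5 exons) and was the least abundant of the 9, with 45 to 102 counts in a library. Its means were 2.81 ± 0.219 CPM (SD, n = 3) in control, 2.16 ± 0.446 in EC359, 3.04 ± 0.638 in trametinib and 2.97 ± 0.328 in the combination. Treated groups all overlapped control. The ratio of SMAD7 to SMAD6 per kilobase was 3.60 ± 0.274 in control and 3.42 ± 1.09 with trametinib, against 10.6 ± 1.85 with EC359 and 8.04 ± 1.09 in the combination.

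ID1 is a single-exon gene in the authors' annotation, on the plus strand at chr20:31605283-31606514 (hg38). Its level was 115, 123 and 117 CPM in control and 54.5, 57.1 and 58.5 CPM with EC359. It was 72.8, 74.8 and 73.8 CPM with trametinib and 18.7, 20.5 and 22.5 CPM in the combination. All 4 groups were separate, with control highest and then trametinib, EC359 and the combination. The log2 difference from control was -1.06 ± 0.04 with EC359, -0.68 ± 0.04 with trametinib and -2.52 ± 0.04 in the combination.

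ID3, a relative of ID1, lies on the minus strand at chr1:23557930-23559794 (hg38, 3 exons). Control libraries had 48.4, 48.3 and 45.1 CPM, and EC359 libraries had 35.7, 35.1 and 34.6 CPM. Trametinib libraries had 68.2, 66.5 and 67.5 CPM, and combination libraries had 52.9, 52.0 and 57.7 CPM. ID3 was therefore lowest with EC359 and highest with trametinib, and the combination lay between control and trametinib without overlap. The log2 differences from control were -0.42 ± 0.04, 0.51 ± 0.04 and 0.20 ± 0.04.

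ID1 and ID3 thus differed in direction with trametinib. Per kilobase, ID1 exceeded ID3 by 2.52 ± 0.115 times (SD, n = 3) in control, 1.62 ± 0.0840 times with EC359 and 1.10 ± 0.0280 times with trametinib. In the combination the ratio was 0.381 ± 0.0224, so ID3 was the more abundant there in all 3 libraries.

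**Figure D2:**
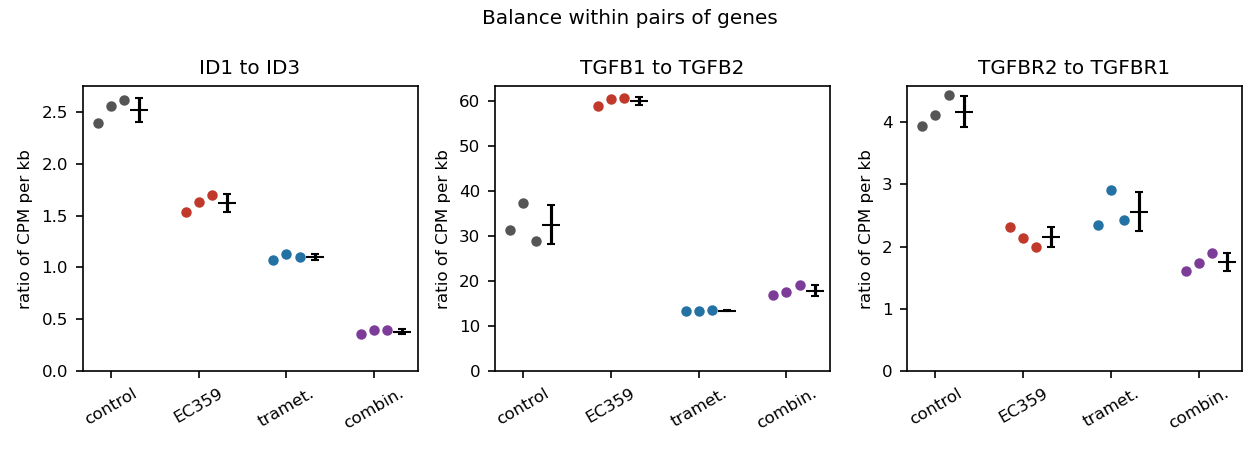
Ratios of levels per kilobase of exon within pairs of genes (vertical axes) in the 12 libraries, by treatment (horizontal axes). Points are libraries and bars are means, and the ratio of ID1 to ID3 stands at 0.355 to 0.396 in the combination and at 2.39 to 2.62 in control.

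Set per kilobase of exon so that genes can be compared, the control levels ran from ID1 at 96.1 CPM per kilobase, through TGFB1 at 60.1, ID3 at 38.1, TGFBR2 at 15.5, SMAD3 at 9.89, TGFBR1 at 3.73, SMAD7 at 3.35 and TGFB2 at 1.87, to SMAD6 at 0.933. No neighbours in this order overlapped in the control libraries. The nearest were TGFBR1, whose lowest library was at 3.56 CPM per kilobase, and SMAD7, whose highest was at 3.46.

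Against control, 2 of the 9 genes passed an adjusted p of 0.05 with at least a 2-fold difference in EC359 (SMAD7 and ID1), beside 6.98% of all genes tested. In trametinib 1 did (TGFB2), beside 1.43%, and in the combination 4 did (TGFB2, SMAD7, TGFBR2 and ID1), beside 13.1%. The libraries of the compared groups did not overlap for 7 of the 9 genes in EC359, 7 in trametinib and 7 in the combination, beside 64.7%, 40.1% and 71.8% of all genes. The median log2 difference of the 9 genes was -0.38, -0.02 and 0.17 in these comparisons, and that of all genes was -0.01, 0.00 and -0.01. These counts include the contrasts with which the genes were chosen.

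**Figure D3:**
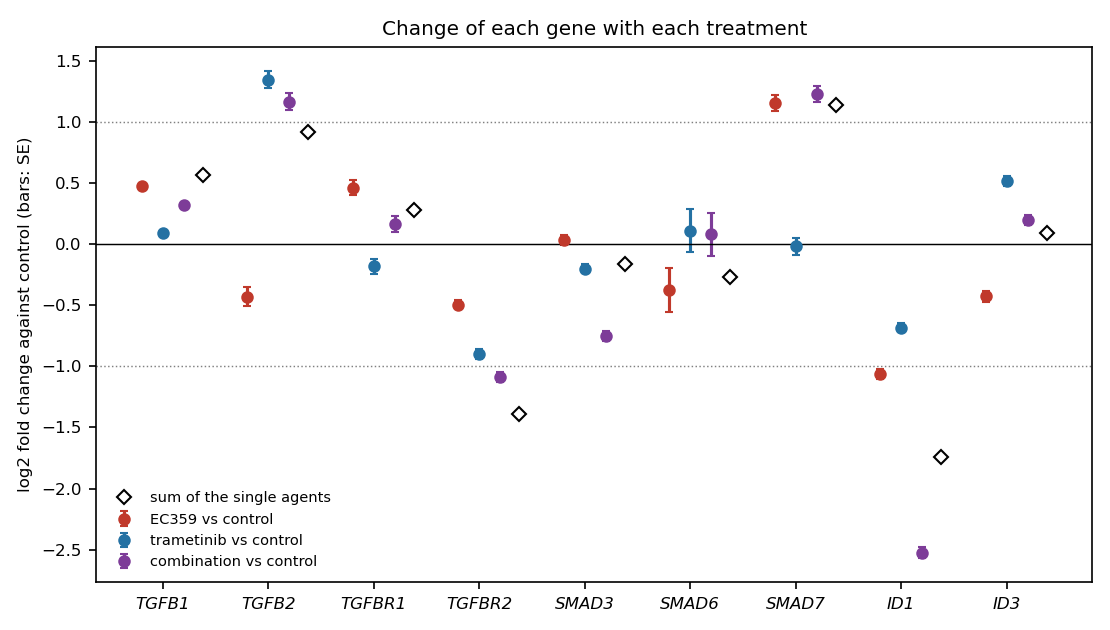
Log2 differences from control (vertical axis) of the 9 genes (horizontal axis) for EC359, trametinib and the combination. Open diamonds are the sum of the differences of the single agents. Bars are SE from the fit across all genes, and the ID1 value of the combination is the lowest, at -2.52.

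Adding trametinib to EC359 was compared as combination against EC359. TGFB2 was higher by 1.60 ± 0.07 on the log2 scale and ID1 lower, at -1.46 ± 0.05, and these 2 genes passed the adjusted p with a 2-fold difference, beside 3.24% of all genes. SMAD3 differed by -0.78 ± 0.04, TGFBR2 by -0.59 ± 0.04, ID3 by 0.62 ± 0.04, TGFBR1 by -0.30 ± 0.06 and TGFB1 by -0.15 ± 0.03. SMAD7 differed by 0.08 ± 0.06, and its 3 combination libraries were all just above those of EC359. SMAD6 differed by 0.46 ± 0.18, with overlapping libraries. Libraries did not overlap for 8 of the 9 genes, beside 53.7% of all genes.

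Adding EC359 to trametinib was compared as combination against trametinib. ID1 differed by -1.84 ± 0.05 and SMAD7 by 1.25 ± 0.07, the 2 genes past both thresholds, beside 11.6% of all genes. The other log2 differences were -0.55 ± 0.04 for SMAD3, 0.35 ± 0.06 for TGFBR1, -0.32 ± 0.04 for ID3, 0.23 ± 0.03 for TGFB1, -0.19 ± 0.05 for TGFBR2 and -0.18 ± 0.06 for TGFB2. SMAD6 differed by -0.03 ± 0.18, the 1 gene whose libraries overlapped. The other 8 of 9 did not overlap, beside 70.3% of all genes.

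The interaction is the log2 difference of the combination from control minus the sum of those of the single agents, so 0 means that the agents multiplied. It was -0.78 ± 0.06 for ID1, -0.59 ± 0.06 for SMAD3 and -0.25 ± 0.04 for TGFB1, whose combination levels were below that product. It was 0.31 ± 0.06 for TGFBR2, whose combination level was above it. These 4 of the 9 genes passed the adjusted p, beside 30.3% of all genes. For TGFB2, TGFBR1, SMAD6, SMAD7 and ID3 the interaction was 0.25 ± 0.10, -0.12 ± 0.09, 0.35 ± 0.25, 0.09 ± 0.09 and 0.11 ± 0.06, and none of these 5 passed.

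Genes with the most similar pattern were found by the root mean square (RMS) difference of log2 CPM, centred on each gene's control mean, over the 12 libraries among 9397 genes. The potassium channel gene KCNK1 was nearest to SMAD7, at an RMS of 0.0495 against a median of 0.845, with 23.5, 53.6, 23.1 and 54.7 CPM in control, EC359, trametinib and the combination. RRS1, a ribosome assembly factor, was nearest to ID1, at 0.212 against a median of 1.43, and averaged 99.3, 51.6, 69.6 and 21.7 CPM. IGFBP3, which binds insulin-like growth factors, was nearest to ID3, at 0.0640 against 0.420, and averaged 361, 266, 513 and 444 CPM. The nearest gene to TGFB2 was TRIM58, at 0.368 against 0.947, a wider distance than for the other 8. TRIM58 averaged 296, 331, 637.5 and 851 CPM in control, EC359, trametinib and the combination. Unlike it, TGFB2 was lower in EC359 than in control and lower in the combination than in trametinib. For TGFB1, TGFBR1, TGFBR2, SMAD3 and SMAD6 the nearest were ATF2 (0.0359), SLC30A7 (0.0891), ZNF702P (0.109), CDCA4 (0.0679) and STXBP4 (0.166).

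A further 106 genes of the TGF-beta and BMP pathways were listed by role, and 79 of them passed the filter on low counts. In EC359 against control, 11 of the 79 changed at an adjusted p under 0.05 (edgeR, quasi-likelihood, adjusted over all 14865 genes by Benjamini-Hochberg) and at least 2-fold. Of these, 9 rose and 2 fell, or 11.4% and 2.53% of the 79, beside 4.19% and 2.79% of all genes. The median log2 difference of the 79 was 0.26, beside -0.01 for all genes. Scaling by total counts only, which moved the median of all genes to -0.15, gave 8 that rose and 4 that fell. Without a minimum fold, 41 were higher and 13 lower, beside 30.8% and 30.3% of all genes.

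Among TGF-beta targets, 4 of 12 rose at least 2-fold in EC359 and 4 in the combination, beside 4.19% and 7.27% of all genes, and 0 fell in either. Without a minimum fold, 9 were higher and 1 lower in EC359, beside 30.8% and 30.3% of all genes. In the combination 8 were higher and 3 lower, beside 35% and 34.7%. The 1 lower in EC359 was COL1A1 (-0.92 ± 0.03, edgeR adjusted p = 8.13e-37), named here after its values were seen. CDKN1A, which encodes the cyclin-dependent kinase inhibitor p21 and is also a classic p53 target, had a log2 change of 3.54 ± 0.04 in EC359 and 3.36 ± 0.04 in the combination (edgeR adjusted p = 4.72e-57 and 9.00e-56). JUNB, an AP-1 subunit and immediate early gene, rose by 2.93 ± 0.04 and 2.13 ± 0.04 (edgeR adjusted p = 7.68e-55 and 2.58e-47). SNAI1, a repressor of epithelial genes, rose by 1.84 ± 0.07 and 2.19 ± 0.07 (edgeR adjusted p = 1.22e-31 and 7.54e-36). CDKN1A and JUNB did not pass the test in trametinib (JUNB did with total counts only, without the second control library and without the first trametinib library, at edgeR adjusted p of 0.0470, 0.0398 and 0.0370), at -0.08 ± 0.06 and 0.08 ± 0.04, and SNAI1 fell by 0.41 on the log2 scale.

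CCN2, a matricellular growth factor listed as CTGF in the files, averaged 80.7 CPM in control against 250.4 CPM in EC359, 22.5 CPM in trametinib and 138 CPM in the combination. It rose with EC359 (log2 change 1.63 ± 0.03, edgeR adjusted p = 4.20e-46) and fell with trametinib (-1.84 ± 0.04, edgeR adjusted p = 4.31e-42).

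Of named inhibitors and modulators of the pathway, PMEPA1, BAMBI and SKIL rose with EC359 and BMPER fell. PMEPA1, which binds SMAD2 and SMAD3 and limits their activation, averaged 29.1 CPM in control and 20.9 CPM in trametinib, against 86.5 CPM in EC359 and 75.7 CPM in the combination. Its log2 change was 1.57 ± 0.04 in EC359 and 1.38 ± 0.04 in the combination (edgeR adjusted p = 2.46e-37 and 1.76e-34). BAMBI, a decoy receptor, rose by 1.13 ± 0.09 and 1.68 ± 0.09 (edgeR adjusted p = 3.41e-16 and 6.35e-24). SKIL, a SMAD corepressor, rose by 0.88 ± 0.05 and 0.75 ± 0.05, short of 2-fold. Counted without a minimum fold, 9 of 18 intracellular regulators, a role that holds activators as well as inhibitors of signaling, were higher and 2 lower in EC359 at an adjusted p under 0.05, beside 30.8% and 30.3% of all genes, and 9 were higher and 5 lower in the combination, beside 35% and 34.7%. Of 11 tested extracellular antagonists and decoys, 4 were higher and 2 lower in EC359, and 6 were higher and 1 lower in the combination, by the same count.

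The other tested BMP targets moved in both directions. ID4, another ID family gene, was at 0.696 CPM in control and 7.03 CPM in the combination, and rose by 2.20 ± 0.20 in EC359 and 3.34 ± 0.20 in the combination on the log2 scale (edgeR adjusted p = 3.95e-14 and 3.66e-22). HEY1, a repressor that is also a Notch target, rose by 1.30 ± 0.17 and 1.82 ± 0.17 (edgeR adjusted p = 1.75e-09 and 1.68e-14). ID2, under 1 CPM in control, rose in the combination (2.02 ± 0.43, edgeR adjusted p = 4.40e-05) and did not pass in EC359 (0.76 ± 0.50). ATOH8, at low counts, fell in EC359 (-1.81 ± 0.37) and rose in trametinib (1.12 ± 0.28), with edgeR adjusted p of 3.53e-05 and 0.00118. DLX5, also under 1 CPM in control and named here after its values were seen, fell in the combination (-0.98 ± 0.33, edgeR adjusted p = 0.00753). In EC359, 2 of 6 tested BMP targets rose and 1 fell at least 2-fold, beside 4.19% and 2.79% of all genes, and in the combination 3 rose and 0 fell, beside 7.27% and 5.87%. Without a minimum fold, 3 were higher and 1 lower in EC359, beside 30.8% and 30.3% of all genes. By that count 4 were higher and 1 lower in the combination, beside 35% and 34.7%.

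In trametinib, 4 of the 79 genes changed at least 2-fold, 1 up and 3 down, or 1.27% and 3.80% of the 79, beside 0.478% and 0.955% of all genes. They were ATOH8, CCN2, INHBA and BMPER. INHBA, a subunit of activin A, fell by 1.35 on the log2 scale with trametinib and by 0.83 in the combination, and rose by 0.65 ± 0.06 with EC359 (edgeR adjusted p = 1.18e-22, 1.28e-15 and 4.88e-13). BMPER, a secreted BMP modulator, fell by 1.01 with trametinib, 0.58 with EC359 and 0.84 in the combination (edgeR adjusted p = 5.34e-10, 2.52e-05 and 1.33e-08). The median log2 difference of the 79 was 0.01.

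In the combination against control, 13 of the 79 rose and none fell at least 2-fold, beside 7.27% and 5.87% of all genes. Without a minimum fold, 44 were higher and 17 lower (beside 35% and 34.7%), so the 0 holds for the 2-fold threshold only. DESeq2 also gave 13 that rose and 0 that fell, and without the filter on low counts 2 fell. Without the second control library 2 fell, and without the third combination library 4 did. Scaling by total counts only gave 12 that rose and 3 that fell. The median log2 difference was 0.33, beside -0.01 for all genes.

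**Figure D4:**
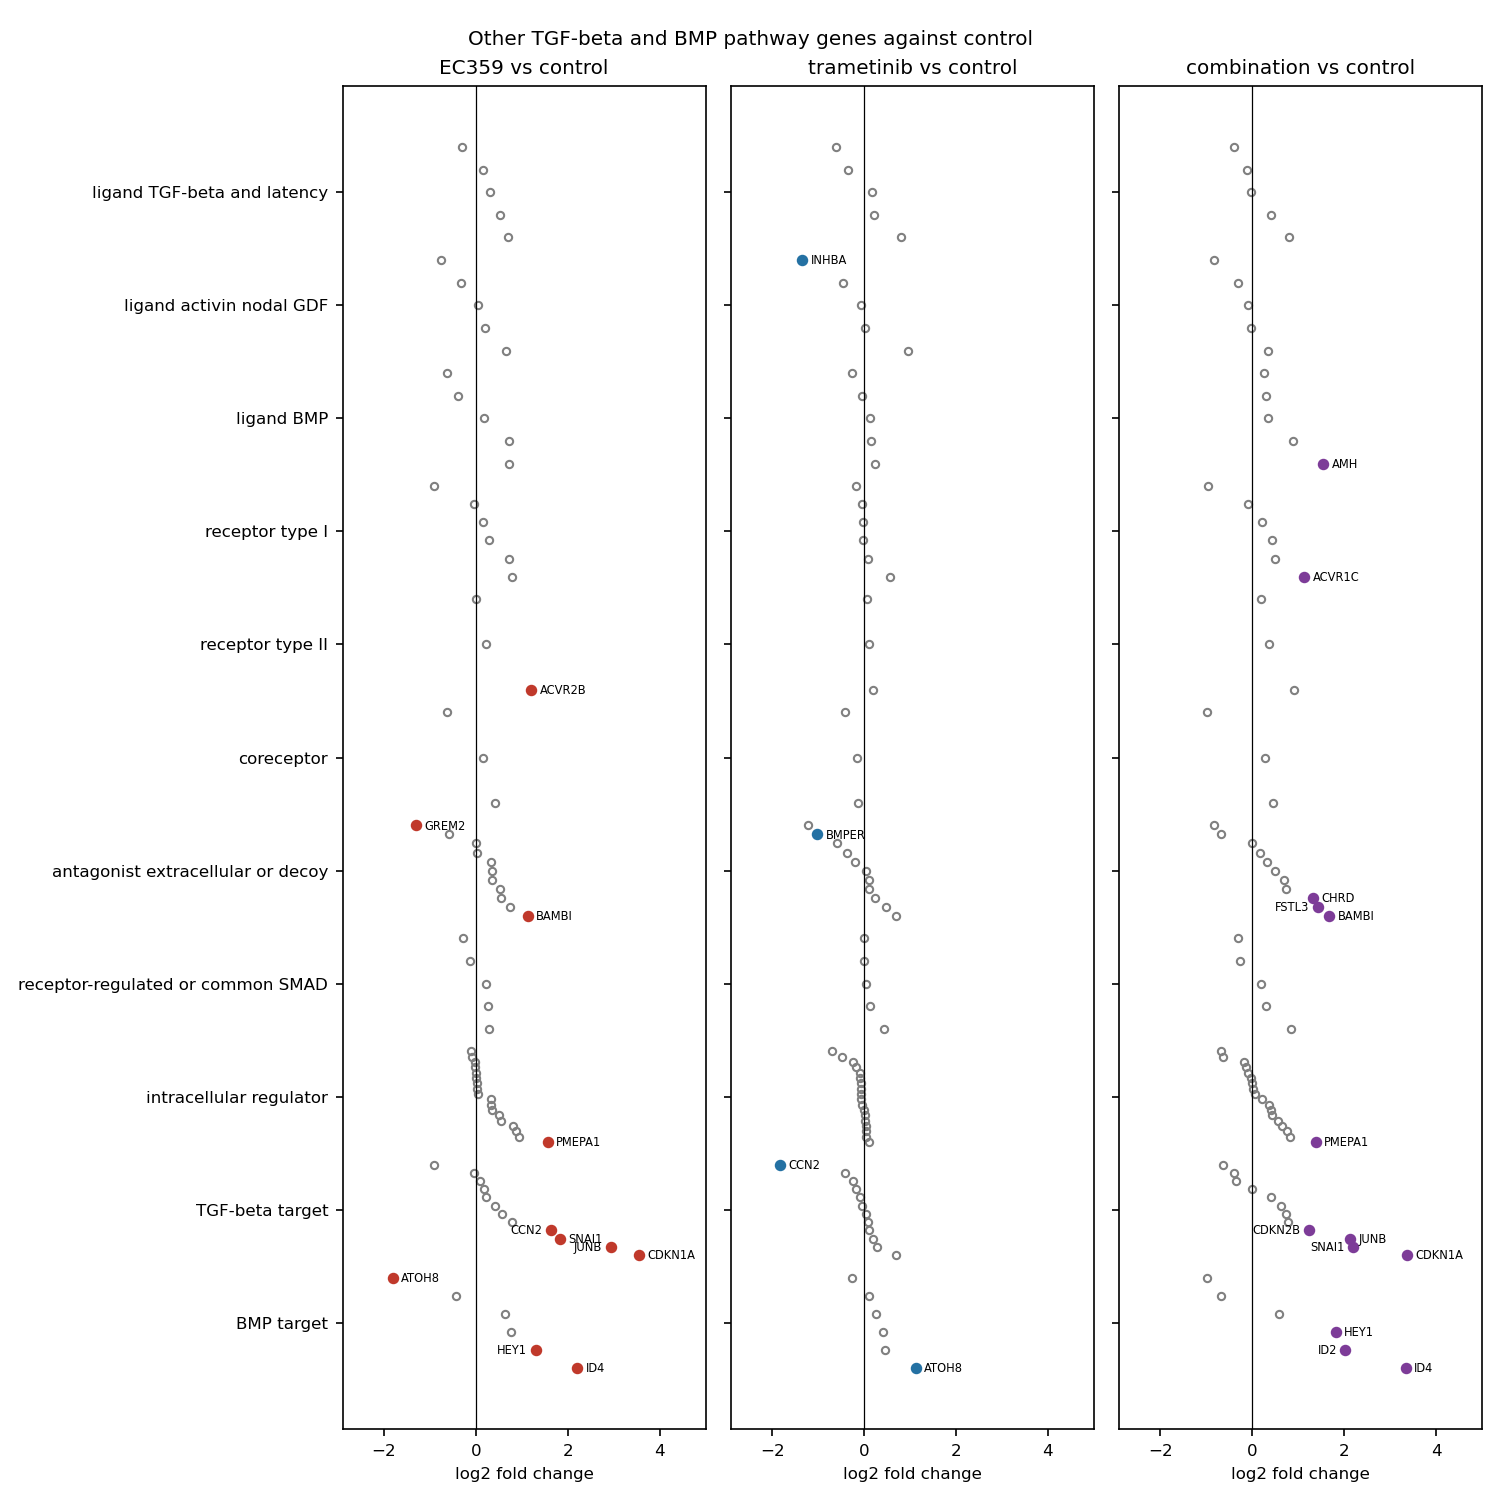
Log2 differences from control (horizontal axes) of 79 other TGF-beta and BMP pathway genes, by role (vertical axis), for EC359, trametinib and the combination. Each point is a gene, filled and named where the adjusted p was under 0.05 with at least a 2-fold change, as for CDKN1A at 3.54 in EC359.

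Of the remaining SMADs, none reached 2-fold. SMAD4, the common partner, rose by 0.26 ± 0.04 in EC359 and 0.30 ± 0.04 in the combination, and SMAD2 by 0.28 ± 0.05 and 0.20 ± 0.05. SMAD1, which carries BMP signals, fell by 0.27 in each, and SMAD5 by 0.13 and 0.30. SMAD9, also a carrier of BMP signals, is named here after its values were seen. It rose in trametinib (0.44 ± 0.12, edgeR adjusted p = 0.00285) and in the combination (0.84 ± 0.12, edgeR adjusted p = 7.22e-09), and did not pass in EC359 (0.21 ± 0.12). For SMAD1, SMAD2, SMAD4 and SMAD5, all 8 changes passed an edgeR adjusted p of 0.05, the highest being 0.00428 for SMAD5 in EC359. SMAD1 in EC359 no longer passed without the first EC359 library (-0.18, edgeR adjusted p = 0.0610).

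The receptors ACVR2B, ACVR1, ACVRL1 and ACVR1C and the coreceptor ENG are named here after their values were seen. ACVR2B, a type II activin receptor, rose in EC359 (1.21 ± 0.06, edgeR adjusted p = 5.63e-25) and in the combination (0.90 ± 0.06, edgeR adjusted p = 1.97e-19). ACVR1, a type I BMP receptor, rose by 0.79 ± 0.06 and 0.50 ± 0.06 (edgeR adjusted p = 1.27e-17 and 1.55e-10). ACVRL1, a type I receptor known from endothelium, fell by 0.90 and 0.98 (edgeR adjusted p = 3.36e-06 and 5.90e-07). ACVR1C, at under 1 CPM in every group, rose in the combination (1.13 ± 0.44, edgeR adjusted p = 0.0204). ENG, the coreceptor endoglin, fell by 0.64 in EC359, 0.41 in trametinib and 0.98 in the combination (edgeR adjusted p = 8.22e-17, 5.56e-10 and 2.75e-24). BMPR2, the type II BMP receptor, rose by 0.23 ± 0.04 and 0.19 ± 0.04, and TGFBR3, which encodes betaglycan, by 0.16 ± 0.05 and 0.45 ± 0.05 (edgeR adjusted p at most 0.00904). SMAD1, SMAD2, SMAD4, SMAD5, BMPR2 and TGFBR3 did not pass the test in trametinib. With total counts only, TGFBR3 in EC359 (0.02) and BMPR2 and SMAD2 in the combination (0.05 and 0.06) no longer passed (edgeR adjusted p = 0.742, 0.208 and 0.294), nor did TGFBR3 in EC359 without the first or the second control library (edgeR adjusted p = 0.0536 and 0.0563).

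Of the other ligands, 5 of 6 TGF-beta and latency genes, 5 of 12 activin, nodal and GDF genes and 5 of 14 BMP family genes passed the filter on low counts. The genes GDF11, INHBA, GDF1 and INHBB averaged 41.6, 18.2, 17.8 and 12.7 CPM in control. GDF1 overlaps CERS1 on the same strand and can share its reads. AMH, the anti-Müllerian hormone, averaged 10.1 CPM in control, 16.5 CPM in EC359, 10.9 CPM in trametinib and 29.3 CPM in the combination, and is named here after its values were seen. It rose by 0.71 ± 0.09 on the log2 scale in EC359 and 1.54 ± 0.08 in the combination (edgeR adjusted p = 1.27e-08 and 9.22e-18). BMP4 was at 1.47 ± 0.149 CPM (SD, n = 3) in control and did not pass the test in any treatment against control, except in EC359 with total counts only (-0.52, edgeR adjusted p = 0.0459). TGFB3 averaged under 1 CPM in every group, and BMP2, at a mean of at most 0.137 CPM, was not tested.

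Without a minimum fold, 54 of the 79 genes changed in EC359, 32 in trametinib and 61 in the combination against control, beside 61.1%, 28.2% and 69.6% of all genes. In the combination against EC359 and against trametinib, 45 and 62 did, beside 49.2% and 68.2%.

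Between the treated groups, 6 of the 79 changed at least 2-fold in the combination against EC359 (5 up, 1 down, beside 1.69% and 1.55% of all genes). In the combination against trametinib 16 did (13 up, 3 down, beside 6.12% and 5.48%). The interaction passed an adjusted p of 0.05 for 26 of the 79 genes, 16 above and 10 below the product of the single agents, beside 14.4% and 15.9% of all genes. These comparisons share libraries with those against control.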

How the data were processed

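Polyadenylated RNA of OVCAR8 cells was sequenced in 12 libraries. The deposited values are estimated counts (expected counts) per gene: per the file headers, the counting program was featureCounts 1.5.0-p1, run by the authors on read pairs and by strand, with a minimum mapping quality of 2 and an hg38 annotation, and divided shared reads as fractions. The submitters' processing notes name HISAT2 and bcl2fastq. Values were rounded to whole numbers, since 12.4% to 15.1% of genes in a library were not whole.

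Analyses used R 4.3.3. In edgeR 4.0.16, low genes were dropped by filterByExpr (at least 10 counts, total at least 15). After TMM scaling (factors 0.947 to 1.06), 1 robust quasi-likelihood fit covered the 4 treatments and 14865 of 26485 genes, with Benjamini-Hochberg adjustment over all of them. Calls needed an adjusted p-value under 0.05 and a 2-fold change, or no minimum fold for the interaction. The fit was tested on simulated data.

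The members, gene lists and naming rule were chosen with earlier results of these data known. Named were the members, key pathway genes and, per treatment against control, up to 6 called genes each way, by size of change, that reached 1 CPM in either group. A further pathway gene is not reported here. Alternatives were DESeq2 1.42.0, RLE size factors in edgeR (in place of TMM) and total counts only. Further ones were no filter, only the groups compared, a replicate block, no minimum fold and each library left out. Promoters came from RefSeq GRCh38.p14, and gene coordinates from the authors' annotation.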

Additional observations from a re-analysis of the deposited data

Results flagged for a closer look

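Of 21 tested pathway genes named by rule, 8 (38.1%) passed the interaction test, so that the effect of 1 agent differed with the other present (edgeR, quasi-likelihood, Benjamini-Hochberg), beside 30.3% of all genes. Some of the 21 were named for large changes against control in these same libraries, so the shares cannot be compared as a test. Of all 79 other pathway genes tested, 26 (32.9%) passed the interaction test. AMH (0.71 ± 0.12, adjusted p = 2.22e-05) and ACVR2B (-0.50 ± 0.09, adjusted p = 6.65e-06), named after their values were seen, passed it too. The combination was above the product of the single agents for CCN2 (log2 interaction 0.98 ± 0.05, adjusted p = 3.23e-23), SNAI1 (0.77 ± 0.10, adjusted p = 8.40e-09), BMPER (0.76 ± 0.17, adjusted p = 0.000449) and ID4 (0.73 ± 0.29, adjusted p = 0.0457). It was also above it for TGFBR3 (0.42 ± 0.07, adjusted p = 8.44e-06) and PMEPA1 (0.29 ± 0.07, adjusted p = 0.000336). It was below the product for JUNB (-0.89 ± 0.05, adjusted p = 3.04e-20) and SMAD5 (-0.17 ± 0.06, adjusted p = 0.0213). The ID4 value no longer passed with DESeq2 (adjusted p = 0.0910), total counts only (0.0560), no filter on low counts (0.0565), the replicate block (0.0514), or without any of 9 single libraries (adjusted p from 0.0546 to 0.178). The SMAD5 value no longer passed without the second control (adjusted p = 0.0624), second EC359 (0.128), first trametinib (0.0886) or second combination (0.0993) library.

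TGFB1 stood out because trametinib libraries were all above control, whereas combination libraries were all below those of EC359, by a log2 difference of -0.15. This opposite direction was not tested, since TGFB1 was chosen with its values known.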

How the results depend on the processing

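Without a minimum fold change, 54, 32 and 61 of the 79 other pathway genes changed in EC359, trametinib and the combination against control, in place of 11, 4 and 13, and 45 and 62 in the combination against EC359 and trametinib, in place of 6 and 16. With 1 library left out, the counts were 10 to 11, 3 to 5, 12 to 17, 5 to 6 and 15 to 18, and 22 to 26 for the interaction. Scaling by total counts only moved the median of all genes to -0.15 in EC359, -0.14 in the combination and -0.16 in the combination against trametinib. Under it the share of called genes that rose went from 81.8% to 66.7% in EC359 and from 100% to 80% in the combination, and the combination against trametinib turned to -0.028 for BMPR2 (adjusted p = 0.520) and -0.019 for SMAD2 (adjusted p = 0.746). Of 693 values of the 9 genes under alternatives, 671 moved by less than 1 SD, and the other 22 all came from that scaling. In the combination against control, the lowest value under alternatives was 0.03 for TGFBR1, in place of 0.17, and 0.06 for ID3, in place of 0.20. In the combination against trametinib it was 0.06 for TGFB1, in place of 0.23. Differences below 0 could grow, as for TGFBR2 there, at -0.35 in place of -0.19. Of 1613 values of single pathway genes, 1561 kept their direction and side of the threshold. Samples with the same replicate number did not deviate together (18 pairs, correlations -0.0659 to 0.0274), and a replicate block gave 11, 4, 13, 6, 16 and 24 calls, the last for the interaction in place of 26. Depth limits SMAD6, at 45 to 102 counts, and the genes under 1 CPM.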
